A study of Rattus norvegicus with 12 samples.

Results

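All 12 arrays of the study enter one comparison here, the 6 arrays of gastrocnemius muscle from rats given nandrolone against the 6 from rats given vehicle, over both times at which muscle was taken. The arrays were chosen by their titles, and the day on which the muscle was taken, 7 or 35, entered the fit as an additive term. The animals were male rats of the Wistar-Hannover strain in which the left sciatic nerve had been cut, and every array holds muscle of the denervated limb, so the vehicle rats carry the denervation too and no innervated muscle is part of the comparison. The 4 groups were nandrolone from the day of surgery with muscle taken at day 7, vehicle over the same days, nandrolone started 29 days after surgery with muscle taken at day 35, and vehicle over those days. Each group had 3 arrays, and treatment lasted 7 days in each. The labels give neither the dose nor the age of the animals, and they do not say whether equal replicate numbers mark litters or days. The 3 arrays of a group are read as separate samples, and the p-values set each difference against the spread between arrays that the fit leaves over.

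Nandrolone is a synthetic anabolic steroid related to testosterone. Androgens change the transcription of genes through DNA motifs called androgen response elements, and nandrolone has been used to preserve muscle in wasting. Cutting a motor nerve makes the fibres it served shrink. In that state the ubiquitin ligases encoded by Trim63 (MuRF1) and Fbxo32 (atrogin-1) mark muscle proteins for the proteasome, and subunits of the acetylcholine receptor and the factor myogenin are made outside the synapse. Glucocorticoids promote the same wasting programme.

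The values are signal intensities of 31042 non-control probe sets. Each is a group of short probes read together, and some are paired with more than 1 gene or with none. To each signal 16 was added, log2 taken and the arrays quantile normalised. The dimmest 40% by their mean over the arrays were dropped, and 18625 probe sets were tested. Differences are nandrolone minus vehicle on this log2 scale, which understates the change of dim probe sets. The median deposited signal of an array lay between 45.0 and 111.5. The highest was nandrolone day 35 replicate 3, and the next was 63.7. That array also correlated least with the other arrays of its group, at a mean r of 0.937. The markers of muscle fibres fixed for a check of the tissue, Acta1, Ckm, Mb, Tnnt3, Ttn and Des, were all measured on all arrays. Acta1, the skeletal muscle actin, lay between 13.83 and 14.03 in the 6 nandrolone arrays and between 13.92 and 14.05 in the 6 vehicle arrays. The summed normalised signal of these fibre markers was lowest in nandrolone day 35 replicate 3, at 78270, and in nandrolone day 7 replicate 3, at 79400. In the other arrays it ran from 83160 to 89610.

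No probe set passed the test for a nandrolone difference common to both times. In limma, with Benjamini-Hochberg adjustment over 18625 probe sets, 0 had an adjusted p under 0.05 (0%), and the smallest adjusted p was 0.523. At an unadjusted p under 0.05 there were 869 probe sets (4.67%), where evenly spread p-values would give 931.25. Of these, 395 (2.12%) were higher and 474 (2.54%) lower with nandrolone. On the deposited scale, with no normalisation between arrays, the split was 920 higher and 22 lower of 942, and with median centring it was 423 higher and 445 lower. The median standard error of the difference was 0.17, so the typical 95% interval reached 0.37 to either side. The interval was narrower for some genes and wider for others, as given with the genes below. None of the genes below has passed the test, and their values are given as measured.

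**Figure D1:**
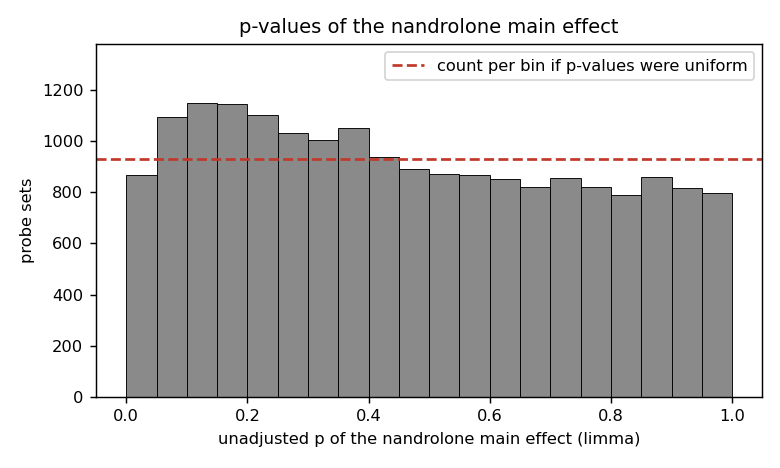
The bars count tested probe sets by their unadjusted limma p for the nandrolone difference over both times, in steps of 0.05. The first bar holds 869 probe sets and lies below the dashed line at 931.25, the count that evenly spread p-values would give.

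The same held at each time. At day 7, 0 probe sets were called (0%), 331 had an unadjusted p under 0.05 (1.78%), and the smallest adjusted p was 1. At day 35, 0 were called (0%), 1590 had an unadjusted p under 0.05 (8.54%), and the smallest adjusted p was 0.268. The difference between the nandrolone differences of the 2 times was tested as an interaction. It gave 0 calls (0%), 745 probe sets at an unadjusted p under 0.05 (4%), and a smallest adjusted p of 0.928. A larger count at day 35 than at day 7 is thus not shown to differ between the times for any single probe set.

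The 2 times share no array. The deviations of equal-numbered nandrolone arrays correlated across the 2 times, at r of 0.162, 0.265 and 0.416 for numbers 1, 2 and 3. Unequal numbers were not compared, and whether arrays of equal number share a source was not tested. Of the 18625 probe sets, 9633 had the same sign at both times (51.7%). Across probe sets, which are not independent, the differences of the 2 times correlated at r = 0.0859. In 106 probe sets (0.569%) the nandrolone arrays all lay on the same side of the vehicle arrays at day 7 and again at day 35, 48 of them higher (0.258%) and 58 lower (0.311%). In 67 probe sets (0.36%) the groups were apart at both times but in opposite directions. At day 7 alone the groups did not overlap in 1426 probe sets (7.66%), higher with nandrolone in 3.9% of all, and at day 35 in 2168 (11.6%), higher in 4.33%. Of the 106, 75 name 1 gene, for 74 genes in all. Their median difference was 0.63 among those higher and -0.42 among those lower, 44 differed by at least 1.5-fold and 7 by at least 2-fold. These sizes follow in part from the choice of groups that do not overlap.

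**Figure D2:**
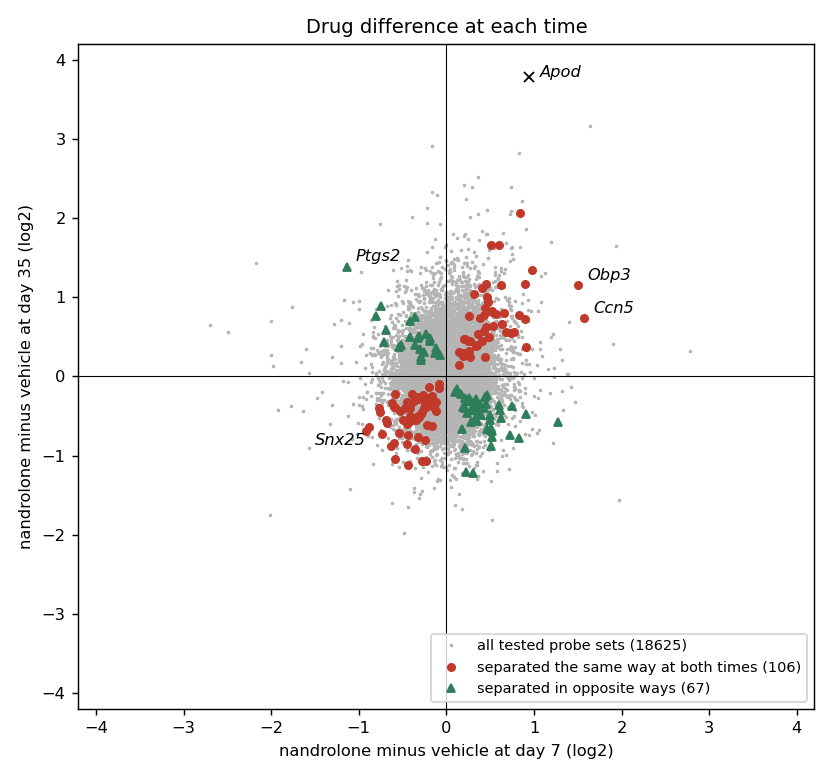
Each point is 1 of 18625 tested probe sets, with the log2 difference of nandrolone minus vehicle at day 7 across and at day 35 up. Red circles mark the 106 probe sets whose groups were apart in the same direction at both times and green triangles the 67 that were apart in opposite directions, and over the whole grey cloud r is 0.0859.

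The direction seen at one time was read in the other time's arrays. The 100 probe sets of named genes with the smallest p for a higher value at day 7 had the same sign at day 35 in 59 cases, where 45.2% of all tested probe sets were higher at day 35. Their median difference was 0.66 at day 7, where they were chosen, and 0.15 at day 35. The 100 lower ones at day 7 kept their sign at day 35 in 58 cases, where 54.8% of all were lower, with a median of -0.04. Of the 100 chosen as higher at day 35, 59 were higher at day 7, where 49.4% of all were, with a median of 0.04. Of the 100 chosen as lower at day 35, 59 were lower at day 7, where 50.6% of all were, with a median of -0.05. In all, 235 of 400 kept their sign, and the medians were close to 0 in 3 of the 4 sets. Over all tested probe sets the median difference was -0.04 at day 35 and -0.003 at day 7.

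The genes described next are the 12 higher and 12 lower ones with the smallest p among probe sets that name 1 gene and whose groups were apart in the same direction at both times. They were chosen by these values, so their differences are a description and no test. Their adjusted p in limma lay between 0.523 and 0.865.

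Among the higher genes, the 3 largest differences were those of the secreted and matrix proteins Obp3, Ccn5 and Col12a1. Obp3 encodes a lipocalin of the alpha-2u-globulin family, small carriers of odorants that in rats are made in liver under androgen control. Its log2 signal was 6.67, 7.19 and 6.32 with nandrolone and 4.82, 4.94 and 5.90 with vehicle at day 7. At day 35 it was 6.75, 7.48 and 7.72 with nandrolone and 6.10, 6.38 and 6.01 with vehicle. All nandrolone arrays of a time were above all vehicle arrays of that time, by 1.33 ± 0.23 over both times (SE), a fold of 2.51. The family has many near-identical copies, so which of them the probes read is uncertain. A further Obp3 probe set differed by 0.75 at day 7 and by 0.74 at day 35.

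The promoters of these genes were searched for an androgen response element. DNA farther from the start was not searched, so an absence here does not speak for the whole gene. The element's core of 6 bases is AGAACA, or TGTTCT on the other strand, and the whole palindromic element searched was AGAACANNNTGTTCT. Promoter windows of 250 bases up to the start came from RefSeq for the GRCr8 assembly. They were found for 8 of the 12 higher genes and all 12 lower genes. The first listed window of each gene was taken, and both strands were searched. The core was in 2 of the 8, Obp3 and Cyp1b1, in 0 of the 12, and in 5865 of all 33469 windows (17.5%). The whole element was in 4 of all windows (0.012%) and in none of these. A match of 6 letters is a description and no binding site. The windows of the 2 genes with a core, and of Snx25, the lower gene with the smallest p, follow with cores in capitals.
Obp3, chr5:79640676-79640925, minus strand: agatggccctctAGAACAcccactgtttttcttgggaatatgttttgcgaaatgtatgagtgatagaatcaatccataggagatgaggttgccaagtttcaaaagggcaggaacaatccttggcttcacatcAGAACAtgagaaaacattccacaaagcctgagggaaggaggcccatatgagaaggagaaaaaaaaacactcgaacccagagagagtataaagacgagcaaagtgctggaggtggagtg
Cyp1b1, chr6:21094315-21094564, plus strand: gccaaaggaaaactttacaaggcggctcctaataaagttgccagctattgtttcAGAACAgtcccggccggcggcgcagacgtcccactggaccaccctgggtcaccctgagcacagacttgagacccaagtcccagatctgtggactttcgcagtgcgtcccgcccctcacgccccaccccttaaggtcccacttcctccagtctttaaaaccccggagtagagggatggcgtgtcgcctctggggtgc
Snx25, chr16:52866852-52867101, plus strand: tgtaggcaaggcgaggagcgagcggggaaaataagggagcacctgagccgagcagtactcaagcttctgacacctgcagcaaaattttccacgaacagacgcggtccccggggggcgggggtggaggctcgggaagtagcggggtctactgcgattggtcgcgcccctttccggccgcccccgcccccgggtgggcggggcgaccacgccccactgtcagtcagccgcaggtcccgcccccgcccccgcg
Obp3 holds 2 cores, whose first bases lie 238 and 118 bases before the start, and Cyp1b1 holds 1 at 196 bases, while Snx25 holds none in this window.

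Ccn5 (WISP2), a matricellular protein of the CCN family, stood at 6.20, 5.72 and 7.48 with nandrolone and 5.52, 4.65 and 4.51 with vehicle at day 7. At day 35 it stood at 6.93, 6.69 and 7.72 with nandrolone and 6.26, 6.38 and 6.50 with vehicle, and over both times it was higher by 1.15 ± 0.31. The third nandrolone array was the highest at each time. Col12a1 encodes a collagen that lies on the surface of collagen fibrils in fascia and tendon. It measured 6.26, 6.69 and 8.00 with nandrolone and 6.25, 5.98 and 6.01 with vehicle at day 7, where the nearest arrays of the 2 groups all but touch. At day 35 it measured 5.98, 6.26 and 6.58 with nandrolone and 4.29, 5.35 and 5.67 with vehicle, for a difference of 1.04 ± 0.29 over both times. Mcpt1l1, a gene of the mast cell protease cluster whose members resemble each other closely, was higher by 0.32 at day 7 and by 1.04 at day 35. For Mcpt1l1 too the probes may read more than 1 family member. The mast cell markers, 2 tested of 5 listed, were on the same side, Cpa3 (a mast cell carboxypeptidase) at 0.62 ± 0.19 and Cma1 (a chymase) at 0.54 ± 0.32. Their summed signal was 192.2 to 288.8 with nandrolone and 105 to 192.6 with vehicle at day 7, and 192.8 to 387.4 with nandrolone and 149.4 to 216.2 with vehicle at day 35. Their part in the Mcpt1l1 difference was not tested.

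Receptors and signalling proteins made up the next group. Ehd4 encodes an ATPase of endosome traffic. It read 7.96, 7.98 and 7.89 with nandrolone and 7.16, 6.89 and 7.30 with vehicle at day 7. At day 35 it read 7.45, 7.71 and 8.39 with nandrolone and 6.95, 7.26 and 7.02 with vehicle. The difference was 0.83 at day 7 and 0.77 at day 35, or 0.80 ± 0.16 in all, and Ehd4 was the only gene of the 74 with more than 1 such probe set. Cxcr4, the receptor of the chemokine Cxcl12, was 7.96, 7.51 and 8.01 with nandrolone and 6.96, 7.49 and 7.11 with vehicle at day 7. At day 35 Cxcr4 was 7.07, 7.81 and 6.89 with nandrolone and 6.43, 6.53 and 6.81 with vehicle, so the groups stood apart by a narrow margin at both times. Trib2, a pseudokinase of the Tribbles family, was higher by 0.46 at day 7 and by 0.62 at day 35. Eps8, which binds actin downstream of growth factor receptors, was higher by 0.52 at day 7 and by 0.82 at day 35.

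The other 4 higher genes encode enzymes and an assembly factor. Cox11 delivers copper to cytochrome c oxidase as that complex is built. It was 6.39, 5.94 and 6.10 with nandrolone and 5.61, 5.29 and 5.21 with vehicle at day 7. At day 35 Cox11 was 6.05, 5.91 and 5.61 with nandrolone and 5.08, 5.39 and 5.41 with vehicle. These are low signals, near the bottom of the tested range at 5.56. Sqle, the squalene epoxidase of cholesterol synthesis, was higher by 0.73 ± 0.19. Nt5c, a nucleotidase, was higher by 0.68 ± 0.17. Sqle and Nt5c were dim too, at mean log2 signals of 5.78 and 5.66. Cyp1b1, a cytochrome P450 that oxidises steroids and foreign compounds, was 6.69, 6.58 and 6.88 with nandrolone and 6.16, 6.48 and 6.11 with vehicle at day 7. At day 35 Cyp1b1 was 7.46, 7.34 and 8.37 with nandrolone and 6.67, 7.04 and 6.44 with vehicle, a difference of 0.73 ± 0.20 over both times.

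**Figure D3:**
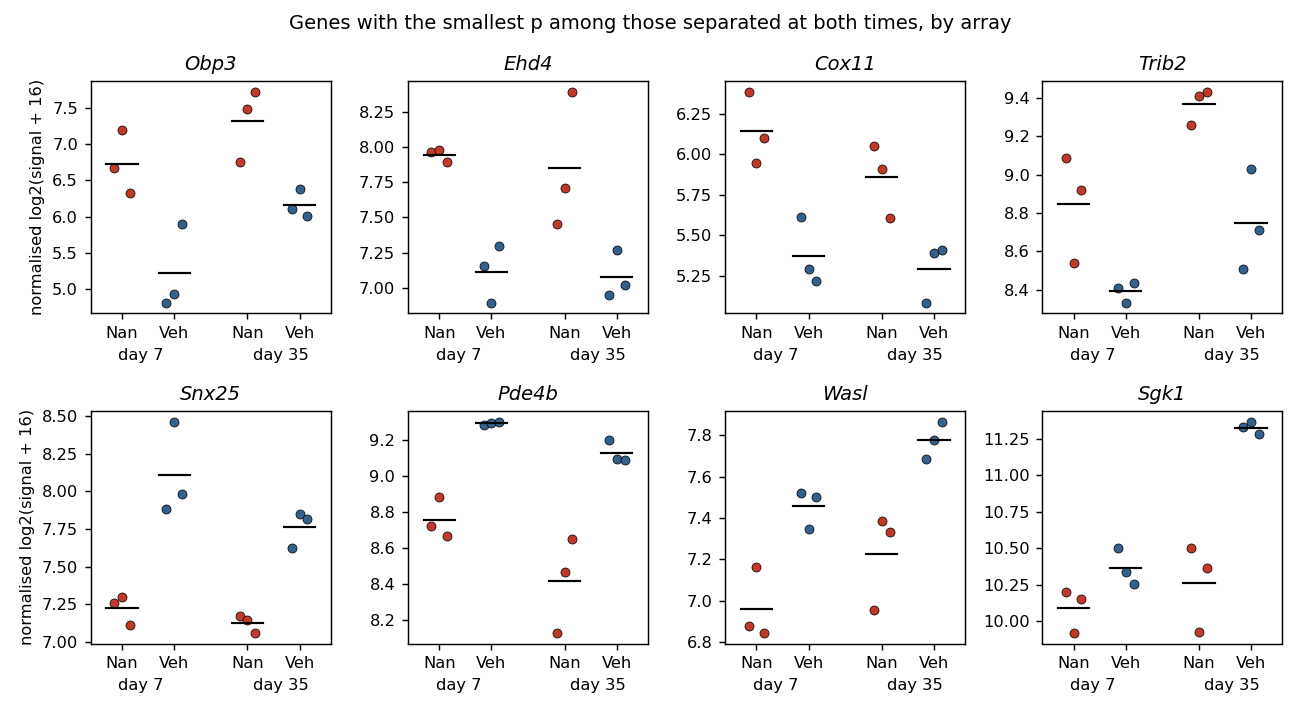
Normalised log2 signal of the 4 higher (top) and 4 lower (bottom) genes with the smallest p among those apart at both times, 1 point per array and a bar at the group mean, nandrolone (Nan) in red and vehicle (Veh) in blue. The vertical scale differs between panels, and in each panel the 2 colours do not overlap within a day.

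The 12 lower genes differed by -0.40 to -0.82 over both times. Snx25 encodes a sorting nexin, a family that sorts membrane proteins in endosomes. It was 7.26, 7.30 and 7.11 with nandrolone and 7.88, 8.46 and 7.98 with vehicle at day 7. At day 35 Snx25 was 7.17, 7.15 and 7.06 with nandrolone and 7.63, 7.85 and 7.82 with vehicle. The 6 nandrolone arrays thus lay between 7.06 and 7.30, below all 6 vehicle arrays, and the difference was -0.76 ± 0.13, a fold of 0.59. Wasl (N-WASP), which starts actin branching through the Arp2/3 complex, was lower by 0.50 at day 7 and by 0.55 at day 35. Dennd2c, of a family that activates Rab proteins, was 9.25, 9.93 and 9.83 with nandrolone and 10.11, 10.15 and 10.09 with vehicle at day 7. At day 35 Dennd2c was 9.32, 8.86 and 8.18 with nandrolone and 9.94, 9.43 and 9.54 with vehicle, a difference of -0.65 ± 0.19 over both times.

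Of the lower signalling genes, Pde4b breaks down cyclic AMP. It was 8.72, 8.88 and 8.67 with nandrolone and 9.29, 9.29 and 9.30 with vehicle at day 7. At day 35 Pde4b was 8.13, 8.47 and 8.65 with nandrolone and 9.20, 9.10 and 9.09 with vehicle. All 6 vehicle arrays lay above all 6 nandrolone arrays, and the difference was -0.63 ± 0.11. Sgk1, a kinase induced by serum and glucocorticoids, was 10.20, 9.92 and 10.15 with nandrolone and 10.50, 10.34 and 10.25 with vehicle at day 7. At day 35 Sgk1 was 10.50, 9.92 and 10.37 with nandrolone and 11.33, 11.37 and 11.29 with vehicle. The difference was -0.28 at day 7 and -1.07 at day 35, and the interaction had an unadjusted limma p of 0.00491, which did not pass adjustment. Sertad1, a regulator of cyclin-dependent kinase 4 and of transcription, was lower by 0.24 at day 7 and by 0.80 at day 35. Dusp11, a phosphatase that acts on RNA ends, was lower by 0.42 at day 7 and by 0.38 at day 35.

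The lower mitochondrial genes were Ucp3 and Slc25a25. Ucp3, the uncoupling protein of muscle mitochondria, was 10.41, 10.43 and 10.05 with nandrolone and 10.46, 10.62 and 10.50 with vehicle at day 7, a gap of a few hundredths between the nearest arrays. At day 35 Ucp3 was 9.03, 9.72 and 8.92 with nandrolone and 10.27, 10.21 and 10.38 with vehicle, so that most of its difference of -0.65 ± 0.18 came from day 35. Slc25a25, a carrier that exchanges ATP-magnesium for phosphate, was 7.67, 8.31 and 8.06 with nandrolone and 8.70, 8.46 and 8.65 with vehicle at day 7. At day 35 Slc25a25 was 7.59, 7.91 and 8.21 with nandrolone and 9.59, 8.41 and 8.84 with vehicle, a difference of -0.82 ± 0.20 over both times. Cutc, named for copper homeostasis, was lower by 0.49 ± 0.14. Flywch2 was lower by 0.73 ± 0.20 and Proser1 by 0.41 ± 0.11.

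The arrays carry further probe sets for some of these genes. Of the 24 genes, 11 had 15 further tested probe sets, of which 13 had the same sign over both times, 10 had it at each time, and 1 stood apart at both times. In 6 genes every further probe set had the same sign at each time. The further probe set of Pde4b differed by -0.61, that of Trib2 by 0.60 and that of Col12a1 by 0.96, and those of Cxcr4 differed by 0.62 and 0.50. Those of Ehd4 differed by 0.67 and 0.31. The second of these, the brightest of the gene, differed by -0.01 at day 7 and by 0.62 at day 35. Probe sets of 1 gene are read on the same arrays and are not independent samples. They disagreed for Wasl, whose further probe sets differed by 0.13 and -0.05, the first of them by 0.38 at day 35 with all nandrolone arrays above the vehicle arrays. They also disagreed for Cox11, whose other probe set differed by -0.01. The second probe set of Ucp3 differed by 0.15 at day 7 and by -0.69 at day 35, or -0.27 over both times. Those of Eps8 differed by 0.22 and 0.13, the second of them by -0.19 at day 7 and by 0.44 at day 35.

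A set of 27 tested genes was listed for a link to androgens, atrophy or denervation. None of the 27 passed the test, 4 had a 95% interval that excludes 0, against 4.67% of all tested probe sets at an unadjusted p under 0.05, and 23 had one that includes it. None stood apart at both times, against 0.569% of all.

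Apod, a secreted lipocalin that carries lipids, had the largest difference among them. It was 10.95, 8.70 and 8.31 with nandrolone and 8.05, 8.59 and 8.49 with vehicle at day 7, where the groups overlapped and 1 nandrolone array was far above the rest. At day 35 Apod was 10.34, 9.51 and 13.73 with nandrolone and 8.79, 6.79 and 6.66 with vehicle, where all nandrolone arrays were higher. The difference was 2.36 (95% interval 0.73 to 3.99) over both times and 1.66 without nandrolone day 35 replicate 3, and it did not pass adjustment (limma adjusted p 0.865). Apod is also made by cells other than muscle fibres. In nandrolone day 35 replicate 3 the summed adipocyte and Schwann cell marker signals were the highest of all 12, with values given below. So were its sums of endothelium (5100), smooth muscle and pericyte (20250), fibroblast (54290), erythrocyte (7584) and mast cell (387.4) markers. The part of any of these cells in the Apod difference was not tested.

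Other genes known to respond to androgens lay near 0 at their brightest probe set. Odc1, the first enzyme of polyamine synthesis, differed by 0.12 (interval -0.15 to 0.39), with 0.29 at day 7 and -0.05 at day 35. Amd1, the next enzyme of that pathway, differed by -0.16 (-0.50 to 0.18), and Smox, which oxidises spermine, by 0.01 (-0.43 to 0.44). Fkbp5, a chaperone partner of steroid receptors, differed by 0.14 (-0.33 to 0.61). Its second, dimmer probe set differed by 0.54 ± 0.24, with 0.40 at day 7 and 0.68 at day 35. The unadjusted limma p of that probe set was 0.041, and it did not pass adjustment. Notch1 differed by 0.27 (-0.16 to 0.69) and Numb, an inhibitor of Notch, by 0.04 (-0.30 to 0.38). The intervals of all 6 genes include 0 at the brightest probe set of each.

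Among the atrophy genes, Trim63 was 12.11, 11.97 and 11.35 with nandrolone and 12.01, 11.93 and 12.11 with vehicle at day 7, where the groups overlapped. At day 35 Trim63 was 10.75, 11.16 and 10.66 with nandrolone and 11.57, 11.62 and 11.69 with vehicle, where they did not. Its difference was -0.20 at day 7 and -0.77 at day 35, or -0.49 (-0.81 to -0.17) over both. Fbxo32 differed by -0.43 (-1.0 to 0.14). Foxo1, a transcription factor upstream of both ligases, differed by -0.45 (-0.84 to -0.05), and its paralog Foxo3 by -0.03 (-0.30 to 0.23). Mstn (myostatin), which limits muscle mass, differed by -0.42 (-0.98 to 0.13), and Fst (follistatin), which binds and blocks it, by -0.60 (-1.18 to -0.01). Igf1, a growth factor for muscle, differed by 0.40 (-0.28 to 1.07). Without nandrolone day 35 replicate 3 the difference of Igf1 was 0.07 and that of Fst -0.38.

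Genes of denervated and regenerating fibres had wide intervals around 0. Myog (myogenin) differed by -0.33 (-0.73 to 0.06) and Myod1, a second factor that drives muscle genes, by -0.25 (-0.57 to 0.08). Runx1, a factor induced by denervation, differed by -0.01 (-0.48 to 0.46). The receptor subunits Chrna1 and Chrng differed by -0.20 (-0.77 to 0.37) and 0.05 (-1.38 to 1.48). Rcan2, an inhibitor of calcineurin, differed by -0.37 (-0.77 to 0.03). Ppargc1a, a coactivator of mitochondrial genes, differed by -0.16 (-0.73 to 0.41). The bright structural genes were measured more tightly. Myh2, a fast myosin heavy chain, differed by 0.01 (-0.15 to 0.17), Acta1 by -0.04 (-0.16 to 0.08) and Ckm, the muscle creatine kinase, by -0.05 (-0.17 to 0.08).

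**Figure D4:**
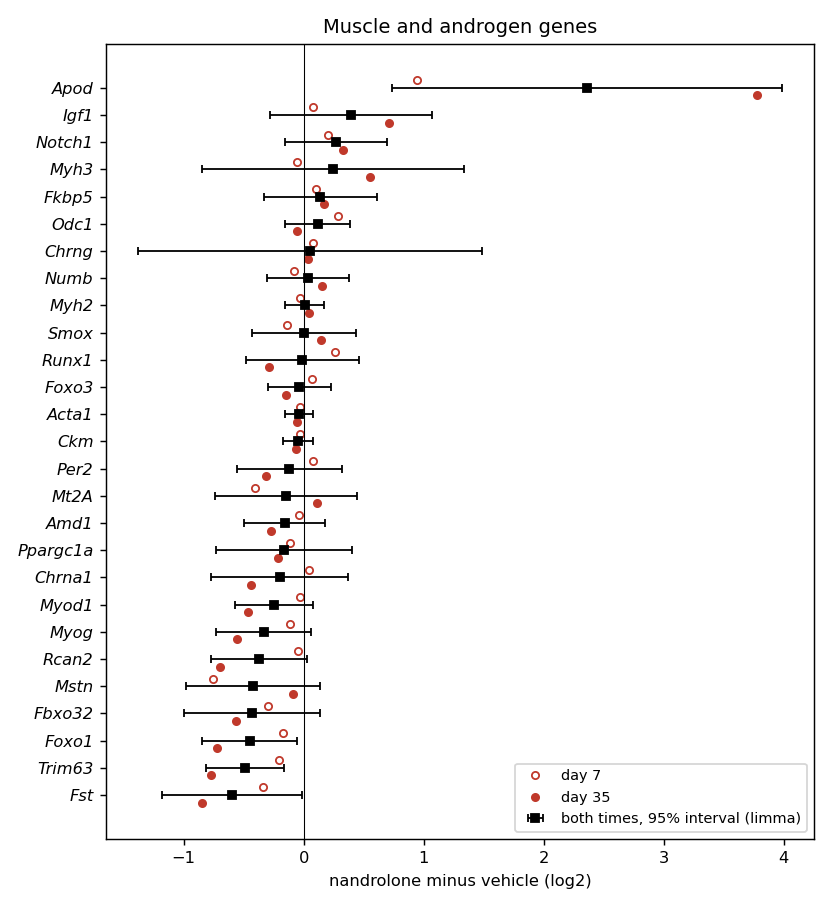
Log2 difference of nandrolone minus vehicle for the 27 muscle and androgen genes, with a square and 95% interval (limma) over both times, an open circle for day 7 and a filled circle for day 35. The intervals of Apod, Fst, Foxo1 and Trim63 leave out 0, and none of the 27 passed adjustment.

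The genes were also grouped into 41 lists, 30 of pathways and 11 of cell type markers, each gene represented by its brightest probe set. No list held a called gene. Over all 10421 tested genes the median difference was -0.02, and 4.39% had an unadjusted p under 0.05. Of these 10421 genes, 4715 were on the higher side and 5706 on the lower side. The medians of 26 lists had the same sign at both times, 14 higher and 12 lower, and those of 15 lists did not.

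The extracellular matrix list had a median of 0.59 over both times, 0.14 at day 7 and 0.94 at day 35, and 30 of its 31 tested genes were on the higher side. At an unadjusted p under 0.05 there were 4, the anti-adhesive glycoprotein Thbs2 at 0.60, the collagen-binding proteoglycan Dcn at 0.42, Col12a1 at 0.96 and the elastic fibre protein Eln at 0.57. Fn1 (fibronectin) differed by 0.87 ± 0.42 and Mmp2, a matrix protease, by 0.57 ± 0.31. Without nandrolone day 35 replicate 3 the median of the list was 0.31, and without nandrolone day 7 replicate 3, left out after its marker sums were seen, it was 0.42. Several lists of cells outside the fibre were on the higher side as well. The fibroblast markers had a median of 0.38, with 7 of 7 tested higher, of 0.22 without the day 35 array and of 0.27 without the day 7 array. The macrophage markers had 0.40, with 10 of 11 higher, 0.25 without the day 35 array and 0.19 without the day 7 array. The smooth muscle and pericyte markers had 0.46, and 0.06 without the day 35 array. The endothelium markers had 0.24, with 6 of 7 higher, and 0.001 without the day 35 array. The Schwann and nerve markers had 0.16, with 4 of 6 higher, and -0.02 without the day 35 array. The tendon and cartilage markers did not keep a direction, with a median of 1.18 at day 7 and -0.21 at day 35, the same sign at both times in 2 of 7, and 0.15 over both times without the day 7 array against 0.45 with it. The erythrocyte markers, 3 tested, had -0.06 at day 7 and 0.70 at day 35, and the only tested lymphocyte marker, Cd4, had 0.28 at day 7 and -0.08 at day 35. In whole muscle, more cells of a type and more RNA per cell cannot be told apart.

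Adipocyte markers had a median of 0.75, with 5 of 5 tested genes of the 8 listed higher, 2 of them at an unadjusted p under 0.05. Their summed normalised signal ran from 6779 to 7968 with nandrolone and from 6824 to 7633 with vehicle at day 7. At day 35 it ran from 5671 to 17340 with nandrolone and from 4194 to 5431 with vehicle. The value of 17340 is that of nandrolone day 35 replicate 3, and without that array the list's median was 0.20. Cfd (adipsin) differed by 1.45 ± 0.54 and Adipoq (adiponectin) by 1.19 ± 0.54. The Schwann and nerve markers, 6 tested of 9 listed, summed to between 1976 and 2966 with nandrolone and between 2490 and 3142 with vehicle at day 7. At day 35 they summed to between 4102 and 15010 with nandrolone and between 3523 and 5037 with vehicle, and the highest was again replicate 3 of nandrolone day 35. Fibroblast markers summed to 21080, 25990 and 44790 with nandrolone and between 24320 and 27170 with vehicle at day 7. At day 35 the fibroblast sums were 25650 to 54290 with nandrolone and 19280 to 26820 with vehicle. The macrophage sums were 2903, 4017 and 10180 with nandrolone and 3788 to 4771 with vehicle at day 7, and 2540 to 6095 with nandrolone and 2136 to 2706 with vehicle at day 35. Smooth muscle and pericyte markers, all 8 tested, summed to 12500 to 12650 with nandrolone and 12070 to 12900 with vehicle at day 7. At day 35 the smooth muscle sums were 10940 to 20250 with nandrolone and 10940 to 12120 with vehicle. Tendon and cartilage markers, 7 tested of 8 listed, summed to 8542, 6874 and 13740 with nandrolone and 8198 to 9130 with vehicle at day 7, and to 8039 to 8852 with nandrolone and 4669 to 9755 with vehicle at day 35. The highest fibroblast, macrophage and tendon sums of nandrolone at day 7 are all those of its replicate 3, which stands apart from its group. Col12a1 differed by 0.82 and Ccn5 by 0.88 without that array. No marker of these lists was called, and the part of these cells in the matrix and Apod differences was not tested.

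With all arrays the glucocorticoid responsive list was the lowest of the 41, with a median of -0.25 over both times. Its median was -0.05 at day 7 and -0.39 at day 35. It was -0.23 without nandrolone day 35 replicate 3 and -0.17 without nandrolone day 7 replicate 3, and the lowest in neither case. Without the day 35 array the immediate early and heat shock list was lowest at -0.26. Without the day 7 array the myogenic and satellite cell list was lowest at -0.26. In the glucocorticoid list 19 of 23 tested genes were on the lower side, and 4 had an unadjusted p under 0.05. These were Sgk1, Foxo1, the transcription factor Cebpb at -0.44 and Klf15, a factor of amino acid and lipid use, at -0.37. Klf9 differed by -0.25 ± 0.13 and Tsc22d3 (GILZ) by -0.29 ± 0.16, both known targets of the glucocorticoid receptor. The ratio of 3' to 5' signal of the actin control, which rises as RNA is degraded, was 2.57, 2.12 and 1.90 with nandrolone and 3.13, 2.68 and 3.71 with vehicle at day 35, with no overlap. At day 7 it was 2.79, 2.29 and 2.08 with nandrolone and 2.81, 2.11 and 2.25 with vehicle. With the log of that ratio as a covariate, Sgk1 differed by -0.49, Trim63 by -0.31, Snx25 by -0.83 and Obp3 by 1.22.

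The list of androgen responsive genes had a median of -0.01, with 11 of 22 tested genes on each side. Besides Apod and Fst, the amino acid transporter Slc38a4 had an unadjusted p under 0.05, at -0.49 ± 0.21. The polyamine list had a median of -0.04. In the list of atrophy ligases and FoxO 17 of 19 genes were on the lower side, with a median of -0.12 that was 0.06 at day 7, -0.32 at day 35 and -0.05 without nandrolone day 35 replicate 3. In the proteasome list 28 of 30 were on the lower side. The proteasome median was -0.12, with -0.01 at day 7, -0.22 at day 35 and -0.04 without that array. The lists of oxidative phosphorylation, glycolysis and ribosomal proteins had medians of -0.02, -0.01 and -0.04. Immediate early and heat shock genes had a median of -0.64 at day 7 and 0.28 at day 35.

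**Figure D5:**
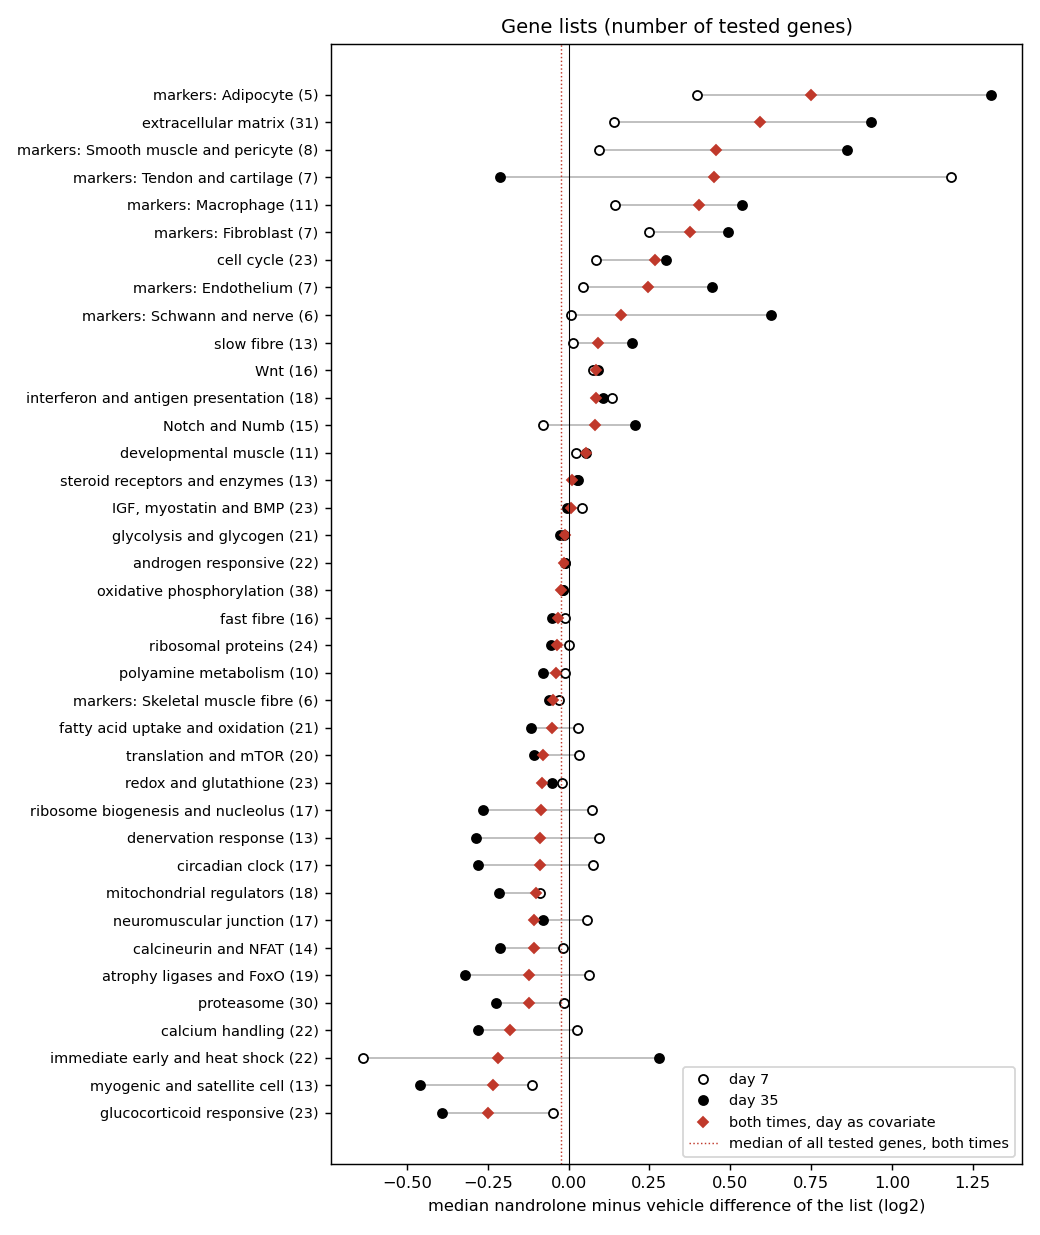
Median log2 difference of nandrolone minus vehicle for each list with at least 5 tested genes (number in brackets), at day 7 (open circle), at day 35 (filled circle) and over both times (diamond). The dotted line is the median of all tested genes at -0.02, and the adipocyte and matrix lists lie highest at 0.75 and 0.59.

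Some genes were chosen by the smallest interaction p, so their unequal differences at the 2 times are a description and no test. Itga6, a laminin receptor subunit, was lower by 0.75 at day 7 and higher by 0.89 at day 35. Its further probe sets were higher at both times. Ptgs2 (cyclooxygenase-2), an enzyme of prostaglandin synthesis, was lower by 1.13 at day 7 and higher by 1.39 at day 35. Zfp212, a zinc finger gene, was higher by 0.50 at day 7 and lower by 0.68 at day 35, while its further probe set ran the other way. St3gal2, a sialyltransferase, differed by -0.11 at day 7 and 1.05 at day 35, and its brighter probe set by 0.03 and 0.97. Mybph, a myosin-binding protein, differed by 0.12 at day 7 and -0.99 at day 35. Over both times the differences of Itga6, Ptgs2 and Zfp212 were 0.07, 0.13 and -0.09, and no interaction passed adjustment (limma).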

How the data were processed

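Total RNA of 12 muscles was read on Affymetrix rat arrays, 1 array per sample. The authors deposited 1 signal intensity, on a linear scale, for each probe set and array, made with MAS5 per the submitters' processing notes; its scaling is not given in the sources used here. A second deposited table, of 12 numbered columns with no key to the samples, was not used. Groups came from the sample titles. The 57 control probe sets were left out of 31099, 16 was added to the deposited intensity, log2 taken and the 12 arrays quantile normalised; these log2 values were computed from the deposited signals. The dimmest 40% by mean were dropped. Limma 3.58.1 in R 4.3.3 fitted drug and day as additive terms, with an intensity trend, and 9 residual degrees of freedom. The differences at each day and the interaction came from 4 group means, which share 1 estimate of the spread. Tests were two-sided, adjusted by Benjamini-Hochberg over 18625 probe sets at 0.05. The number of arrays limits the precision. The pipeline was tested on simulated data.

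Gene names are those of the platform annotation, which pairs 20826 probe sets with 1 gene, 436 with more than 1 and leaves 9780 unnamed; 20758 were brought to current symbols through RefSeq (GRCr8). Genes named were the 12 higher and 12 lower with the smallest p among probe sets of 1 gene whose groups were apart in the same direction at both times, a set of muscle and androgen genes, of which 27 are reported here, the gene of smallest p in each list where none was called, and 3 in each direction by the interaction's p. The contrast, lists and rules were chosen with earlier results of these data known. Promoter letters are RefSeq's. Alternatives were the deposited scale, median centring, a pseudocount of 1 or 64, no filter or one of 60%, no trend, array quality weights, an adjusted p of 0.10, the replicate number as a block, no term for day, 4 group means, the actin ratio as a covariate, only the 6 arrays of a time, and each array left out in turn. The deviations of equal-numbered nandrolone and vehicle arrays correlated at 0.0823 to 0.148 at day 7 and at -0.0228 to 0.0708 at day 35. Those of the 2 nandrolone groups correlated at 0.162, 0.265 and 0.416. The last value joins the 2 arrays numbered 3, whose marker sums stand out. Equal numbers may mark a shared source, which the labels do not state. Unequal numbers were not compared, so these values cannot show it. Leaving nandrolone day 7 replicate 3 out of the list medians was added after seeing the data.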

Additional observations from a re-analysis of the deposited data

Results flagged for a closer look

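Among the genes chosen by the smallest interaction p, 4 had groups that were apart at both times in opposite directions. This was so in 67 probe sets of 18625 (0.36%), and 45 of them name 1 gene. The interaction, the day 35 difference minus the day 7 difference, was 1.64 for Itga6, 2.52 for Ptgs2, -1.18 for Zfp212 and -1.85 for Zbtb11os1. None passed adjustment in limma, where the smallest adjusted p of the interaction was 0.928. For Itga6 the arrays were 5.66, 5.86 and 5.87 with nandrolone and 6.42, 6.75 and 6.47 with vehicle at day 7, and 6.45, 5.93 and 6.53 with nandrolone and 5.78, 5.40 and 5.05 with vehicle at day 35. The further probe sets of Itga6, one of them brighter, did not turn: they differed by 0.25 and 0.11 at day 7 and by 0.87 and 1.09 at day 35. Ptgs2 was 4.95, 6.24 and 6.50 with nandrolone and 6.95, 7.02 and 7.13 with vehicle at day 7, and 6.13, 7.66 and 7.24 with nandrolone and 5.57, 5.62 and 5.68 with vehicle at day 35. Zfp212 was 8.79, 8.75 and 8.58 with nandrolone and 8.24, 8.09 and 8.30 with vehicle at day 7, and 8.62, 8.57 and 8.37 with nandrolone and 9.33, 9.36 and 8.92 with vehicle at day 35. The further probe set of Zfp212 ran the other way, at -0.37 at day 7 and 0.16 at day 35. Zbtb11os1, named as an opposite-strand transcript of Zbtb11, was 6.14, 6.41 and 6.18 with nandrolone and 4.63, 5.54 and 4.74 with vehicle at day 7, and 5.27, 5.70 and 5.77 with nandrolone and 6.08, 6.44 and 5.97 with vehicle at day 35.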

How the results depend on the processing

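The count of 0 probe sets called for the common nandrolone difference was also 0 on the deposited scale, with median centring, with either pseudocount or filter, without the trend, with quality weights, at an adjusted p of 0.10, without a term for day and with the actin covariate. With the replicate number as a block it was 0 too, and the block gave 1089 at an unadjusted p under 0.05; no call at either time or for the interaction changed with the block. With single arrays left out the count ran from 0 to 1. It was 1 without vehicle day 35 replicate 3 and 1 without nandrolone day 35 replicate 3. At an unadjusted p under 0.05 the 869 became 1565 with no filter, 480 with the lowest 60% left out, 576 without a term for day, and 583 to 1546 with single arrays left out. Leaving out 1 array gave 0 to 1 calls at day 7, 0 to 1 at day 35 and 0 to 0 for the interaction. Array quality weights gave 49 calls at day 35, 12 higher and 37 lower. The 106 probe sets apart in the same direction became 186 with no filter, 57 with the 60% filter and 155 to 361 with single arrays left out, where fewer arrays have to be apart. Signs kept at the other time numbered 207 of 400 on the deposited scale, against 235. The 942 at an unadjusted p under 0.05 on the deposited scale were 920 higher and 22 lower, where 395 and 474 were found after quantile normalisation. Among named genes outside the 24, 73 of 1576 alternative values changed sign, and among the list medians 21 of 205; the sign of the 24 is largely fixed by their choice.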

Other observations

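The immediate early genes, which many stimuli switch on within minutes, stood lower with nandrolone at day 7 in the main, while no interaction with day passed adjustment in limma. Nr4a3, a nuclear receptor of this class, was 5.67, 7.22 and 5.96 with nandrolone and 8.16, 7.70 and 8.74 with vehicle at day 7, where the groups did not overlap. At day 35 Nr4a3 was 4.86, 7.32 and 6.92 with nandrolone and 6.65, 6.41 and 7.31 with vehicle, where they did. Atf3, a stress-induced transcription factor, differed by -2.70 at day 7 and 0.65 at day 35, Fosb by -2.0 and 0.27, and Nr4a1 by -1.98 and 0.14. In the list as a whole 19 of 22 genes were on the lower side over both times, and 6 had the same sign at both.

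The gene and probe set called once single arrays were left out were chosen after their values were seen. Errfi1, an inhibitor of growth factor receptors, was 9.23, 9.40 and 9.08 with nandrolone and 10.63, 10.07 and 10.24 with vehicle at day 7. At day 35 Errfi1 was 9.20, 9.34 and 11.05 with nandrolone and 10.77, 10.36 and 10.83 with vehicle, so that nandrolone day 35 replicate 3 alone lay on the other side. The difference was -0.93 ± 0.26 with all arrays and -1.23 without that one (limma adjusted p 0.00905). An unnamed probe set differed by 1.79 ± 0.42 with all arrays and by 2.25 without vehicle day 35 replicate 3 (limma adjusted p 0.00141). It was 5.89, 6.69 and 6.50 with nandrolone and 4.15, 4.53 and 4.58 with vehicle at day 7, and 7.43, 7.77 and 7.48 with nandrolone and 4.84, 4.95 and 7.95 with vehicle at day 35. Each rests on leaving out the 1 array that goes the other way, and neither was called with all 12. Reln, a secreted matrix glycoprotein, had the largest difference of the 106 probe sets apart at both times, 1.45 ± 0.65, with 0.84 at day 7 and 2.06 at day 35, and was likewise singled out after its values were seen.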
